A study of Mus musculus and Homo sapiens with 67 samples.

Results

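Interferon-stimulated genes are the genes that cells switch on when an interferon binds its receptor, and many of their products restrict viruses, sense foreign nucleic acid or modify proteins. The set described here held 51 genes, entered as 52 names because DDX58 and RIGI are names of the same gene. Its members were found by matching these names, ignoring case, to the symbol column of 4 deposited tables of expression in pancreatic cancer. All 51 matched among the 60564 genes of each of the 2 human tables, and 43 matched among the 55335 genes of each of the 2 mouse tables. In the mouse tables no row carried the symbol of GBP1, HERC5, IFI6, IFIT5, OAS1, OASL, SAMD9 or TRIM22.

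The study combined RMC-6236, an inhibitor of RAS in its active, GTP-bound state, with tazemetostat, an inhibitor of EZH2, the catalytic subunit of the Polycomb complex that methylates histone H3 at silenced genes. PSN1 and SW1990 are human pancreatic cancer lines, and the KPC line comes from mouse pancreatic cancer. Each culture had 4 arms of 3 samples, which received both drugs (combination), RMC-6236 alone, tazemetostat alone, or DMSO as control. Orthotopic KPC tumours, placed in the organ of origin, had the same 4 arms with 4 tumours each, and the control mice received vehicle. Samples are labelled only by cell line or as orthotopic tumour and by arm. The labels give no dose, treatment time, mouse age, host strain or alleles of the KPC cells, and do not say whether samples of an arm came from separate cultures, so the p-values for cells reflect scatter among these samples that could be purely technical.

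Values are FPKM (fragments per kilobase of transcript, scaled to the mapped fragments of the library), so they allow for gene length and library size, and the read depth behind them is unknown. Libraries held 11489 to 12772 genes at 1 FPKM or more in the human cultures, 11673 to 11947 in KPC cells and 12386 to 13414 in the tumours. The 5 epithelial markers Cdh1, Epcam, Krt8, Krt18 and Krt19 averaged above 1 FPKM in every arm of all 4 tables, and most leukocyte and macrophage markers were below 1 FPKM in KPC cells. Tests were made with limma on log2(FPKM + 1) across all genes that reached 1 FPKM in at least 3 libraries of a culture or 4 tumour libraries. Every adjusted p below is limma's with Benjamini-Hochberg adjustment over all genes tested in that table, a gene was called at an adjusted p below 0.05, and every change is a difference in log2(FPKM + 1) ± its SE, which understates the change of genes near or below 1 FPKM. The 3 comparisons against control within a table share their control libraries.

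Type I interferons act through the receptor chains IFNAR1 and IFNAR2 and the kinases JAK1 and TYK2, which activate STAT proteins. STAT2 and IRF9 are parts of a factor that binds the interferon-stimulated response element (ISRE), whereas genes such as IRF1 and the guanylate-binding proteins also answer to interferon gamma through the gamma-activated site (GAS). Sensors of double-stranded RNA or DNA induce the interferons themselves, and many of these sensors are in turn induced by interferon, as are STAT2, IRF7 and IRF9. Several families in the set, among them IFIT, IFITM, OAS, GBP and MX genes, hold close paralogs, and how the authors' counting divided reads between paralogs is not stated, nor is whether it used strand.

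The promoters of 5 mouse members are printed because the results below turn on these genes: Ifit3, Ifit1 and Isg15 had the 3 largest falls in RMC-6236 tumours, Gbp2 had the largest rise in all 3 cultures, and Irf1 was higher in all 4 tables. Each line is the 200 bases upstream of a RefSeq gene start in the mouse build GRCm38.p6, written 5′ to 3′ on the gene's strand. The mouse build behind the expression tables is not stated, so these positions are those of RefSeq. Capitals mark the ISRE core (GAAA, any 2 bases, GAAA) or the GAS core (TTC, any 3 bases, GAA) on either strand, and the 3 matches of Isg15 overlap. Ifit1 lies at chr19:34640689-34640888 (+), Ifit3 at chr19:34583329-34583528 (+), Isg15 at chr4:156200819-156201018 (-), Gbp2 at chr3:142620463-142620662 (+) and Irf1 at chr11:53769814-53770013 (+).
Ifit1: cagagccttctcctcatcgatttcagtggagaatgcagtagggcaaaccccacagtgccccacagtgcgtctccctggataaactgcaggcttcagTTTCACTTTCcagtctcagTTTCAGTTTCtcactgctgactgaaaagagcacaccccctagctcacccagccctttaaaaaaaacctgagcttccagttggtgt
Ifit3: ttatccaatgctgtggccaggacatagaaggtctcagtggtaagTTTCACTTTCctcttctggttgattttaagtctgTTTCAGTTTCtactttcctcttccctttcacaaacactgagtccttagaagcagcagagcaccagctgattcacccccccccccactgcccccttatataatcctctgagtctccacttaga
Isg15: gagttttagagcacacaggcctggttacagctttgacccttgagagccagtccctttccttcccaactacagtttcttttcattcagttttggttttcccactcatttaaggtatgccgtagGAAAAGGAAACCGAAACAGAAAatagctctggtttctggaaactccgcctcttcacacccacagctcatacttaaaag
Gbp2: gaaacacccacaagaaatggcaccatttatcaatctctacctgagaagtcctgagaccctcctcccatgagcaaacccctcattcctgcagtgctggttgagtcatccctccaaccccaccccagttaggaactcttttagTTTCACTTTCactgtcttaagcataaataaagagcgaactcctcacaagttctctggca
Irf1: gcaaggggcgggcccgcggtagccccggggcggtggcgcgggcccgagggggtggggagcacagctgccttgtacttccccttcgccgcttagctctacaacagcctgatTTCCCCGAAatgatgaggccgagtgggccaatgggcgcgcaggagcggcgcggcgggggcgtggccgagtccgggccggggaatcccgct

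In RefSeq's promoter windows, which run somewhat further than the printed stretches, 34 of the 43 mouse members had an entry. The ISRE core occurred in 15 of the 34 (44.1%), against 1079 of all 27025 genes (3.99%). The GAS core occurred in 8 of the 34 (23.5%), against 2582 of all genes (9.55%). Of the members that fell in RMC-6236 tumours, 8 of 15 with an entry held the ISRE core (53.3%), and of the tumour-tested members that rose or were not called, 6 of 16 did (37.5%). A match is a description of these letters, and no factor's binding was measured.

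RMC-6236 alone raised most of the set in all 3 cultures. In PSN1, 45 of the 50 tested members were higher and 2 lower than in DMSO cells, where 45.8% of all 13358 genes tested were higher and 34.6% lower. In SW1990, 48 of 49 were higher and 0 lower, against 30.7% and 41.7% of 12913 genes. In KPC cells, 23 of 28 were higher and 2 lower, against 37.9% and 35.8% of 12567 genes. The median change of the members was 0.63 in PSN1, 0.84 in SW1990 and 0.49 in KPC cells, and that of all tested genes was 0.08, -0.06 and 0.02 in the same order of lines. Mitochondrial genes took a larger part of all FPKM in the same arms, 24.2% to 25.2% with RMC-6236 and 22.7% to 23.2% in control in PSN1, 31.6% to 32.5% with RMC-6236 and 26.6% to 28.04% in control in SW1990, and 11.7% to 12.3% with RMC-6236 and 9.84% to 10.4% in control in KPC cells. In the tumours this share was 9.67% to 12.1% with RMC-6236 and 10.1% to 11.9% with vehicle, and its part in the members' changes was not tested. Across the lines, 44 of the 49 members tested in both human tables were higher in both, and 23 of the 28 tested in every culture were higher in all 3. The shares of all genes that were higher in both or in all 3 were not computed, so these overlaps have no background to be judged by.

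Some members passed the filter through the treated arms, since 9 tested members of PSN1, 6 of SW1990 and 5 of KPC cells averaged under 1 FPKM in control. In PSN1 these were CMPK2, DHX58, EPSTI1, IFI27, IFI44L, IRF9, SAMD9L, TRIM22 and XAF1. In SW1990 they were CMPK2, DHX58, GBP2, MX1, RSAD2 and SAMD9L, and in KPC cells Gbp3, Herc6, Irf7, Oas2 and Trim21. Their testing depended on higher values in treated arms, so their calls are no separate support for a rise. Of the members with a control mean of at least 1 FPKM, 36 of 41 were higher and 2 lower in PSN1, 42 of 43 higher in SW1990, and 18 of 23 higher and 2 lower in KPC cells. ZBP1 was below the filter in all 3 cultures and HERC5 also in SW1990. In KPC cells 15 matched members were below it, among them Ifit1, Ifit3, Mx1, Mx2, Rsad2 and Usp18. After rescaling the libraries by their median ratio, 43 members of PSN1 were higher and 4 lower, against 37.1% and 43.2% of all genes. Higher genes then made up 46.2% rather than 56.9% of all calls.

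**Figure D1:**
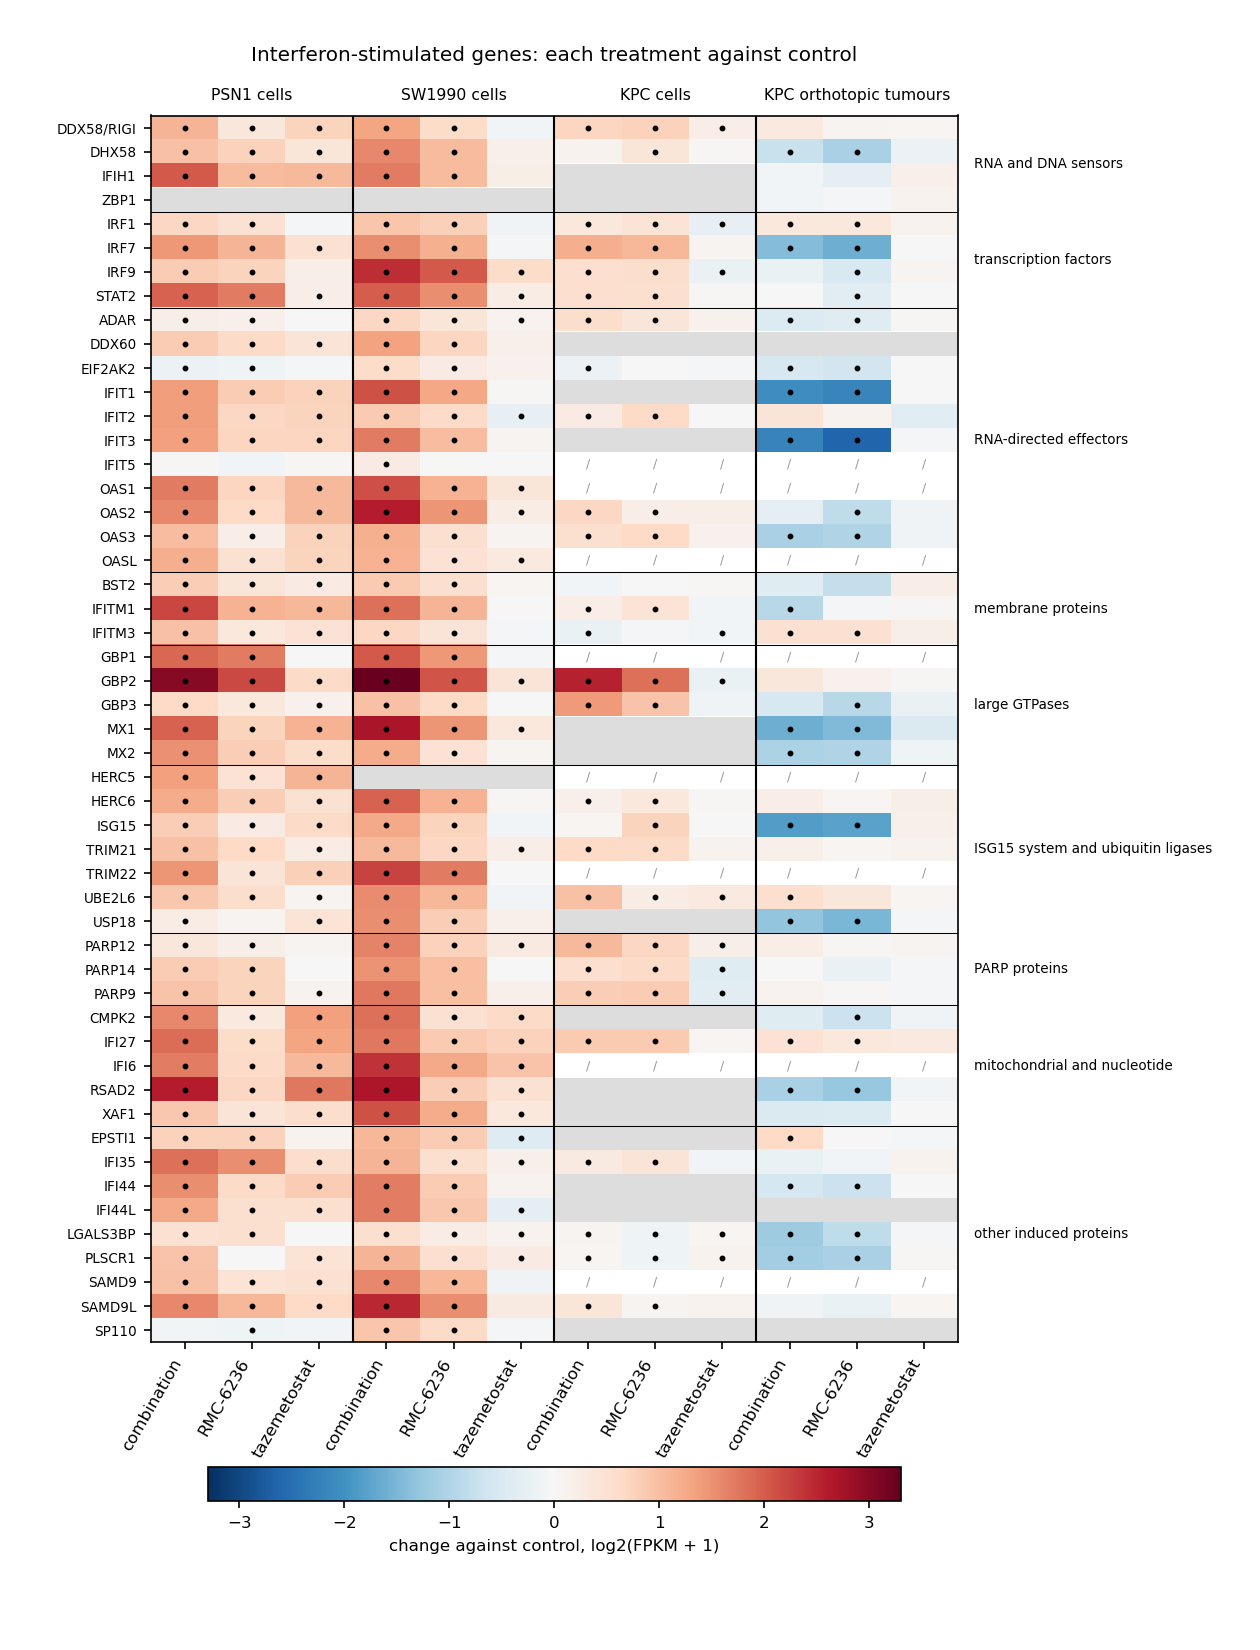
Change of each of the 51 genes (rows, by role) in each table for the combination, RMC-6236 and tazemetostat against control, as a difference in log2(FPKM + 1) by colour. Dots mark adjusted p below 0.05, grey cells were below the filter and slashes had no matching symbol. The RMC-6236 columns are red for most genes in the 3 cultures, and for 20 of the 40 tested members they are blue with a dot in the tumours.

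The guanylate-binding proteins are large GTPases that act on intracellular pathogens, and GBP2 had the largest rise of the tested members in each culture. GBP2 in PSN1 was 11.8, 11.7 and 12.3 FPKM with RMC-6236, against 2.0, 1.85 and 1.64 FPKM in control (2.19 ± 0.05, adjusted p = 4.24e-13). In SW1990 it was 3.51, 4.39 and 4.16 FPKM with RMC-6236, against 0.176, 0.203 and 0.200 FPKM in control (2.07 ± 0.06, adjusted p = 7.95e-12). GBP2 passed the filter in SW1990 only through the treated arms, so its rank there is no separate support for a rise. In KPC cells Gbp2 was 11.6, 13.6 and 12.9 FPKM with RMC-6236, against 2.72, 2.78 and 3.06 FPKM in control (1.83 ± 0.06, adjusted p = 2.52e-11). Every RMC-6236 sample was well above every control sample of its line. GBP1 rose by 1.72 ± 0.04 in PSN1, with 18.7, 18.7 and 17.7 FPKM with RMC-6236 against 4.70, 5.09 and 4.86 FPKM in control. Gbp3, low in untreated KPC cells, had 1.88, 2.29 and 2.07 FPKM with RMC-6236 and 0.563, 0.609 and 0.591 FPKM in control, a rise of 0.95 ± 0.06.

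**Figure D2:**
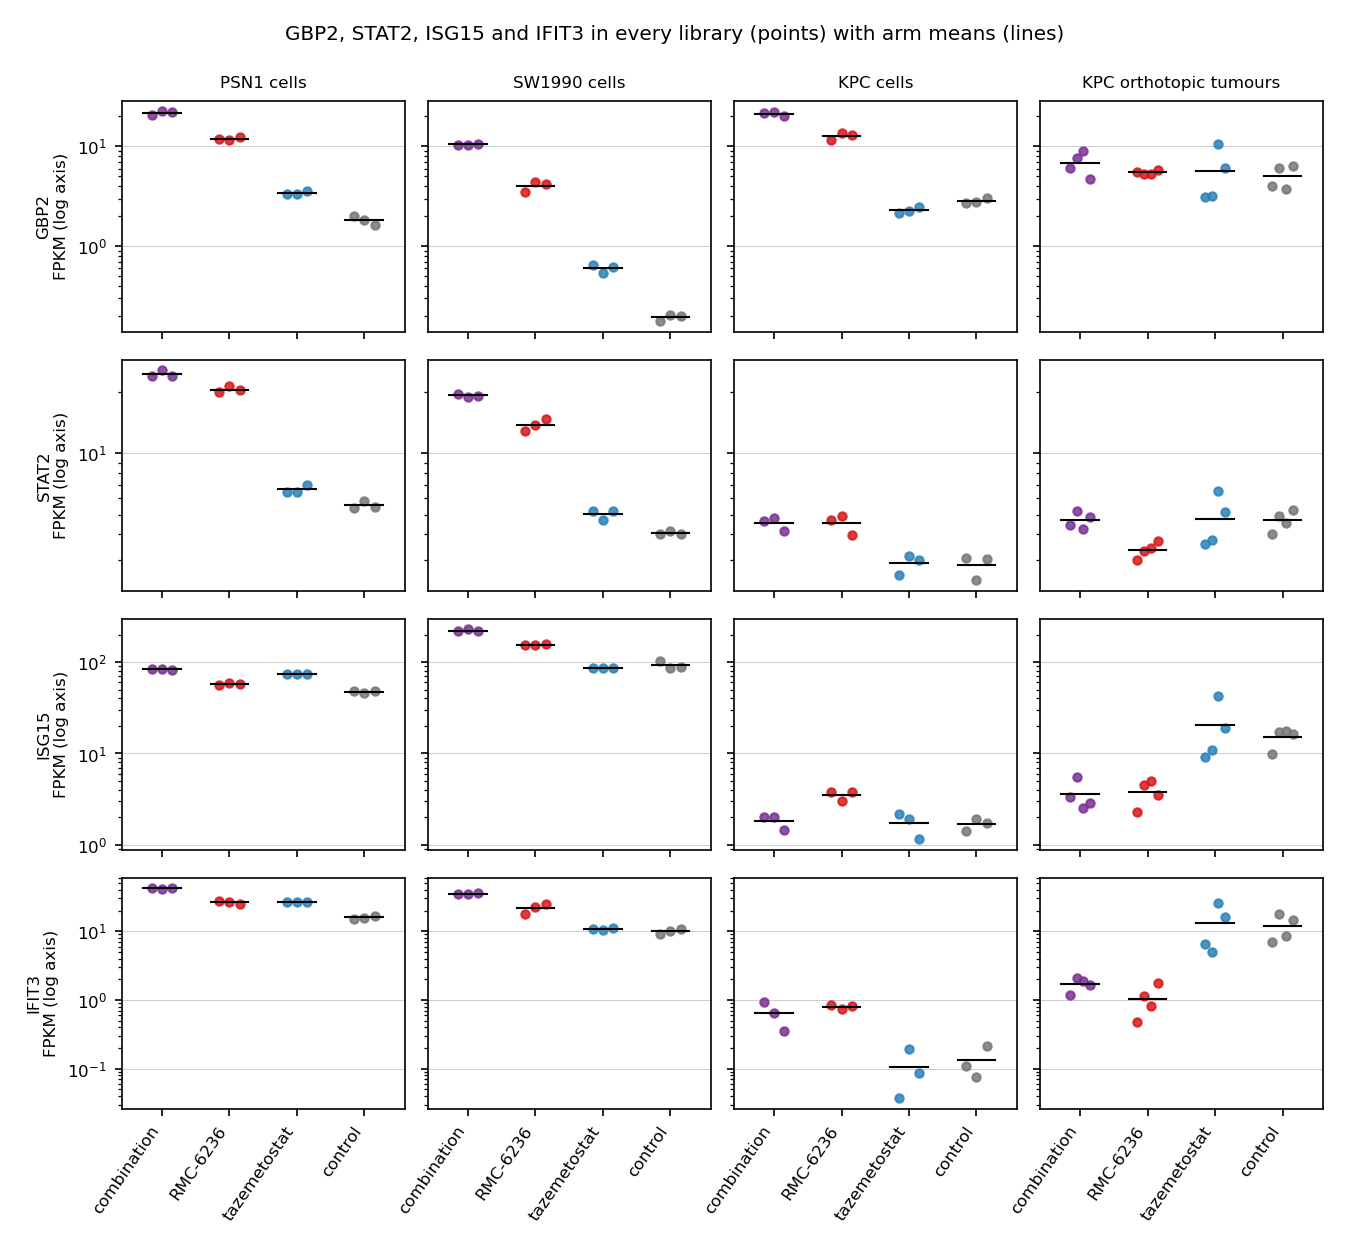
FPKM (log axis) of GBP2, STAT2, ISG15 and IFIT3 in every library, by table and arm, with points for libraries and lines for arm means. GBP2 and STAT2 are higher with RMC-6236 in all 3 cultures, and Ifit3 in the tumours is 0.472 to 1.78 FPKM with RMC-6236 against 6.99 to 18.1 FPKM in control.

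All 4 transcription factors of the set, IRF1, IRF7, IRF9 and STAT2, were higher with RMC-6236 in each culture. Of all genes, 45.8% were higher in PSN1, 30.7% in SW1990 and 37.9% in KPC cells. IRF9 in PSN1 and Irf7 in KPC cells averaged under 1 FPKM in control and passed the filter through treated arms. Those 2 calls are no separate support for a rise. STAT2 in PSN1 had 19.9, 21.3 and 20.3 FPKM with RMC-6236 and 5.39, 5.85 and 5.42 FPKM in control (1.71 ± 0.04, adjusted p = 7.48e-13). In SW1990 it had 12.8, 13.8 and 14.7 FPKM with RMC-6236, against 4.03, 4.16 and 4.0 FPKM in control (1.54 ± 0.05). In KPC cells it had 4.69, 4.92 and 3.97 FPKM with RMC-6236 and 3.05, 2.38 and 3.02 FPKM in control (0.54 ± 0.09, adjusted p = 0.000118). No STAT2 value overlapped between these arms in any line. IRF9, the DNA-binding partner of STAT2, varied widely among replicates in SW1990, at 8.74, 9.27 and 5.38 FPKM with RMC-6236 against 1.04, 1.25 and 1.06 FPKM in control (2.03 ± 0.19, adjusted p = 2e-06). In PSN1 it had 2.24, 1.82 and 1.55 FPKM with RMC-6236 and 0.768, 0.809 and 0.547 FPKM in control (0.75 ± 0.09), and in KPC cells it rose by 0.59. Its arms stood apart in each line. IRF7, which amplifies interferon transcription, had 3.81, 5.13 and 4.73 FPKM with RMC-6236 and 1.43, 1.76 and 1.39 FPKM in control in PSN1 (1.13 ± 0.08). In SW1990 it had 16.2, 17.6 and 18.0 FPKM with RMC-6236 and 7.64, 7.18 and 6.59 FPKM in control (1.17 ± 0.05), and in KPC cells 2.46, 2.90 and 3.34 FPKM with RMC-6236 and 0.715, 0.836 and 0.866 FPKM in control (1.11 ± 0.09). No IRF7 value overlapped between the arms of a line. IRF1, a factor that itself drives interferon-stimulated genes, had 8.18, 7.93 and 8.14 FPKM with RMC-6236 and 5.71, 5.38 and 5.20 FPKM in control in PSN1 (0.50). It had 8.80, 9.19 and 9.77 FPKM with RMC-6236 and 5.26, 4.95 and 4.72 FPKM in control in SW1990 (0.78 ± 0.06), and 19.0, 17.9 and 17.8 FPKM with RMC-6236 and 12.6, 13.6 and 13.4 FPKM in control in KPC cells (0.44 ± 0.05).

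Most effectors that act on RNA rose in each culture. IFIT1, which binds foreign RNA caps, had 12.2, 12.7 and 12.9 FPKM with RMC-6236 and 6.07, 7.09 and 6.72 FPKM in control in PSN1 (0.84), and 7.49, 10.8 and 9.85 FPKM with RMC-6236 and 2.73, 3.36 and 3.58 FPKM in control in SW1990 (1.29 ± 0.10). IFIT3, its partner, had 27.8, 26.5 and 24.9 FPKM with RMC-6236 and 15.3, 15.7 and 16.6 FPKM in control in PSN1 (0.70), and 18.1, 22.3 and 24.5 FPKM with RMC-6236 and 9.13, 10.1 and 10.9 FPKM in control in SW1990 (1.03 ± 0.09). Neither gene's arms overlapped. OAS1, an activator of RNase L, had 4.24, 4.35 and 4.10 FPKM with RMC-6236 and 2.15, 2.49 and 1.92 FPKM in control in PSN1 (0.72 ± 0.06), and 10.6, 11.7 and 11.9 FPKM with RMC-6236 and 4.47, 5.10 and 4.42 FPKM in control in SW1990 (1.13 ± 0.05). OASL rose by 0.50 ± 0.04 and 0.48 ± 0.06, and the helicase DDX60 by 0.62 ± 0.04 and 0.72 ± 0.11, PSN1 first in each pair. Of the 11 tested genes of this role 9 were higher and 1 lower in PSN1, 10 were higher in SW1990, and 4 of 5 were higher in KPC cells. The lower one was EIF2AK2, the kinase PKR that halts translation, with 8.61, 8.11 and 8.21 FPKM with RMC-6236 and 9.0, 9.23 and 9.52 FPKM in control in PSN1 (-0.14 ± 0.04, adjusted p = 0.00425). The sensors RIGI (Ddx58 in the mouse tables), IFIH1 and DHX58 were higher wherever tested in culture, which was 3 of 3 in each human line and 2 of 2 in KPC cells. DHX58 averaged under 1 FPKM in control in both human lines, so its calls there are no separate support for a rise. Of all genes, 45.8% were higher in PSN1, 30.7% in SW1990 and 37.9% in KPC cells. Beside the members' rises in KPC cells, the summed FPKM of 4 leukocyte markers, 3 of which were below 1 FPKM in control, was 0.279 to 0.454 with RMC-6236 and 6.16 to 6.55 in control, and its part in the members' changes was not tested.

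ISG15, a ubiquitin-like modifier, was abundant in both human lines, and its rise was smaller in PSN1 than in SW1990 (difference -0.46 ± 0.06, adjusted p = 3.06e-07). In PSN1 it had 56.6, 58.3 and 58.1 FPKM with RMC-6236 against 48.1, 46.1 and 48.1 FPKM in control (0.28 ± 0.02), and in SW1990 it had 153, 154 and 159 FPKM with RMC-6236 against 104, 86.6 and 88.7 FPKM in control (0.74 ± 0.05). In KPC cells Isg15 was low, with 3.78, 2.99 and 3.77 FPKM with RMC-6236 and 1.43, 1.91 and 1.74 FPKM in control (0.74 ± 0.14, adjusted p = 0.000337). Its values did not overlap between the arms in any line. TRIM22, a ubiquitin ligase, had 5.06, 6.83 and 6.22 FPKM with RMC-6236 and 1.05, 1.19 and 1.14 FPKM in control in SW1990 (1.72 ± 0.08), and in PSN1, at levels under 1 FPKM in both arms, it rose by 0.42 ± 0.07. MX1, a GTPase that blocks viral nucleocapsids, had 4.13, 3.45 and 3.94 FPKM with RMC-6236 and 1.86, 1.93 and 1.96 FPKM in control in PSN1 (0.73). In SW1990 it had 2.97, 3.27 and 3.25 FPKM with RMC-6236 and 0.536, 0.533 and 0.477 FPKM in control (1.46), again without overlap.

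Among the remaining members, IFI35 in PSN1 had 15.3, 14.2 and 15.1 FPKM with RMC-6236 and 4.33, 4.42 and 4.65 FPKM in control (1.54 ± 0.03). IFI6 and IFI27, small proteins of mitochondrial and other membranes, rose in both human lines, IFI6 by 0.64 ± 0.07 in PSN1 and 1.25 ± 0.04 in SW1990. IFI27 had 1.92, 1.95 and 1.72 FPKM with RMC-6236 and 0.818, 0.803 and 1.04 FPKM in control in PSN1 (0.60 ± 0.07), and 46.3, 45.6 and 45.9 FPKM with RMC-6236 and 26.4, 23.5 and 23.9 FPKM in control in SW1990 (0.88 ± 0.04). Ifi27 in KPC cells had 54.8, 57.3 and 54.1 FPKM with RMC-6236 and 29.7, 30.8 and 29.6 FPKM in control (0.86 ± 0.05). SAMD9 rose by 0.44 ± 0.05 in PSN1 and 1.11 ± 0.10 in SW1990, and IFI44L by 0.53 ± 0.06 and 0.89 ± 0.08 in the same lines. The few falls were small. SP110, a nuclear body protein, fell by 0.14 ± 0.05 in PSN1 (adjusted p = 0.0158), a call that was lost without RMC-6236 replicate 3 (adjusted p = 0.0575), control replicate 2 (0.0677) or control replicate 3 (0.0652), or with the compared arms alone (0.0526). In KPC cells Plscr1, a phospholipid scramblase, had 52.1, 49.9 and 52.0 FPKM with RMC-6236 and 57.5, 55.4 and 58.4 FPKM in control (-0.15 ± 0.03), and Lgals3bp, a secreted galectin-binding glycoprotein, had 298, 291 and 301 FPKM and 325, 325 and 337 FPKM in the same arms (-0.15 ± 0.02).

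The change with RMC-6236 differed between PSN1 and SW1990 for 34 of 49 members in a joint limma model of both tables. It was larger in PSN1 for 5 and larger in SW1990 for 29, where 43.7% of the 11547 genes tested had the more positive change in PSN1 and 16.8% in SW1990. On this scale TRIM22 differed most, with a change of 0.42 in PSN1 and 1.72 in SW1990 (difference -1.30 ± 0.11, adjusted p = 8.6e-10), followed by IRF9 at 0.75 and 2.03 (-1.28 ± 0.22, adjusted p = 4.02e-05). TRIM22 was under 1 FPKM in both PSN1 arms, and IRF9 averaged under 1 FPKM in PSN1 control. The log2(FPKM + 1) scale understates both changes in PSN1, so the ranking depends on it. IFI35 went the other way, with 1.54 in PSN1 and 0.54 in SW1990 (1.0 ± 0.07, adjusted p = 1.17e-11). For GBP2 the difference was 0.12 ± 0.08 and did not pass (adjusted p = 0.198).

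Tazemetostat alone raised most of the set in PSN1 and a smaller number of members in SW1990, and in KPC cells the share that was higher lay near that of all genes. In PSN1, 39 of 50 members were higher and 0 lower, against 23.6% and 22.5% of all genes, with a median of 0.51. In SW1990, 18 of 49 were higher and 3 lower, against 23.1% and 14.4%, with a median of 0.12. In KPC cells, 5 of 28 were higher and 6 lower, against 18.6% and 25.5%, with a median of 0.04. Of members with a control mean of at least 1 FPKM, 32 of 41 in PSN1 were higher and 0 lower. In SW1990 14 of 43 were higher and 3 lower, and in KPC cells 5 of 23 were higher and 6 lower. After median-ratio rescaling the counts were 37 higher and 4 lower in PSN1, against 19.4% and 33% of all genes. In SW1990 they were 14 higher and 7 lower, against 17.7% and 26% of all genes. Higher genes then made up 37% rather than 51.2% of all calls in PSN1 and 40.5% rather than 61.7% in SW1990.

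The genes that tazemetostat raised most in PSN1 were RSAD2, which encodes viperin, an enzyme that turns CTP into an antiviral nucleotide, and CMPK2, a mitochondrial nucleotide kinase. RSAD2 had 6.03, 6.79 and 6.67 FPKM with tazemetostat and 1.24, 1.06 and 1.5 FPKM in control (1.73 ± 0.07, adjusted p = 8.79e-10), above the 2.44, 2.59 and 2.81 FPKM reached with RMC-6236. CMPK2 had 4.04, 3.75 and 4.11 FPKM with tazemetostat and 1.07, 0.705 and 1.11 FPKM in control (1.35). CMPK2 averaged under 1 FPKM in control and passed the filter through treated arms, so its rank is no separate support for a rise. MX1 had 5.48, 5.68 and 5.33 FPKM with tazemetostat and 1.86, 1.93 and 1.96 FPKM in control (1.16). ISG15 rose by 0.63 ± 0.02 with tazemetostat and by 0.28 ± 0.02 with RMC-6236, whereas GBP1 had a change of -0.01 (adjusted p = 0.909) and IRF1 of -0.08 (adjusted p = 0.0941). No value of RSAD2, CMPK2 or MX1 overlapped between tazemetostat and control.

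In SW1990 the largest rises with tazemetostat were those of IFI6 and IFI27. IFI6 had 50.3, 52.4 and 51.4 FPKM with tazemetostat and 27.8, 24.8 and 25.8 FPKM in control (0.95 ± 0.04, adjusted p = 2.28e-09), and IFI27 had 43.3, 42.7 and 41.2 FPKM with tazemetostat and 26.4, 23.5 and 23.9 FPKM in control (0.76). EPSTI1, named for its part in epithelial and stromal interaction, fell to 5.17, 5.29 and 5.06 FPKM, against 6.75, 7.6 and 7.38 FPKM in control (-0.42 ± 0.06, adjusted p = 0.00012). IFI44L fell by 0.32 ± 0.08 (adjusted p = 0.00637) and IFIT2 by 0.26 ± 0.08 (adjusted p = 0.0242). ISG15 had a change of -0.10 that did not pass (adjusted p = 0.177). IRF9 rose by 0.60 ± 0.19 (adjusted p = 0.0313), a call lost without control replicate 1, 2 or 3 (adjusted p = 0.0977, 0.0549 and 0.0785) or without tazemetostat replicate 1 or 3 (0.0561 and 0.109). It was also lost with the replicate block (adjusted p = 0.0873), with median-ratio scaling (0.0625) and with no filter (0.091).

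In KPC cells the rises were small. Ube2l6, the conjugating enzyme for Isg15, had 6.66, 7.35 and 7.99 FPKM with tazemetostat and 6.02, 5.79 and 5.28 FPKM in control (0.31 ± 0.08, adjusted p = 0.00601). Ddx58 rose by 0.22 ± 0.06 (adjusted p = 0.0155), and this call was lost without control replicate 1 or 3 (adjusted p = 0.0517 and 0.0543) or tazemetostat replicate 1 or 3 (0.0549 and 0.0671). Parp14 and Parp9, ADP-ribosyltransferase family members, fell by 0.39 ± 0.06 and 0.35 ± 0.05, and Gbp2 by 0.22 ± 0.06 (adjusted p = 0.01).

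The change with tazemetostat differed between the human lines for 32 of 49 members: 29 were more positive in PSN1 and 3 in SW1990, against 14.8% and 18.9% of all genes. RSAD2 changed by 1.73 in PSN1 and 0.50 in SW1990 (difference 1.23 ± 0.11, adjusted p = 4.44e-09). It averaged under 1 FPKM in SW1990 control, where the log2(FPKM + 1) scale understates its change. IFITM1, a membrane protein that hinders viral fusion, changed by 1.09 and -0.02 (1.11 ± 0.08, adjusted p = 6.37e-10), and ISG15 by 0.63 and -0.10 (0.73 ± 0.06, adjusted p = 8.24e-10), PSN1 first. IFI6 changed by 1.08 in PSN1 and 0.95 in SW1990, and the difference did not pass (0.13 ± 0.09, adjusted p = 0.25).

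With both drugs the human lines carried the tested members at their highest mean level. The mitochondrial share in the combination was 26.1% to 26.9% in PSN1, 31.6% to 32.2% in SW1990 and 11.2% to 11.7% in KPC cells. The mean of log2(FPKM + 1) over the 50 members tested in PSN1 lay at 3.80 to 3.81 in the combination, 3.25 to 3.27 with RMC-6236, 3.15 to 3.17 with tazemetostat and 2.61 to 2.63 in control. In SW1990 the same mean over 49 members lay at 4.28 to 4.30, 3.51 to 3.71, 2.85 to 2.86 and 2.67 to 2.73 in these arms. In KPC cells the combination, at 3.49 to 3.51 over 28 members, stood just above RMC-6236 alone at 3.45 to 3.46, and tazemetostat, at 2.95 to 2.96, lay within the control range of 2.93 to 2.98. These means include 9 members in PSN1, 6 in SW1990 and 5 in KPC cells that passed the filter through treated arms. They therefore lean towards treated arms, and means without those members or over all genes were not computed. Among the other members the median change in the combination against control was 1.12 in PSN1 and 1.53 in SW1990. Over all genes it was 0.07 and -0.02. SW1990 RMC-6236 replicate 1 stood below the other 2 RMC-6236 samples, with the lowest value of its arm for 42 of 49 members. Without any 1 library, 48 members still rose with RMC-6236 in SW1990.

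**Figure D3:**
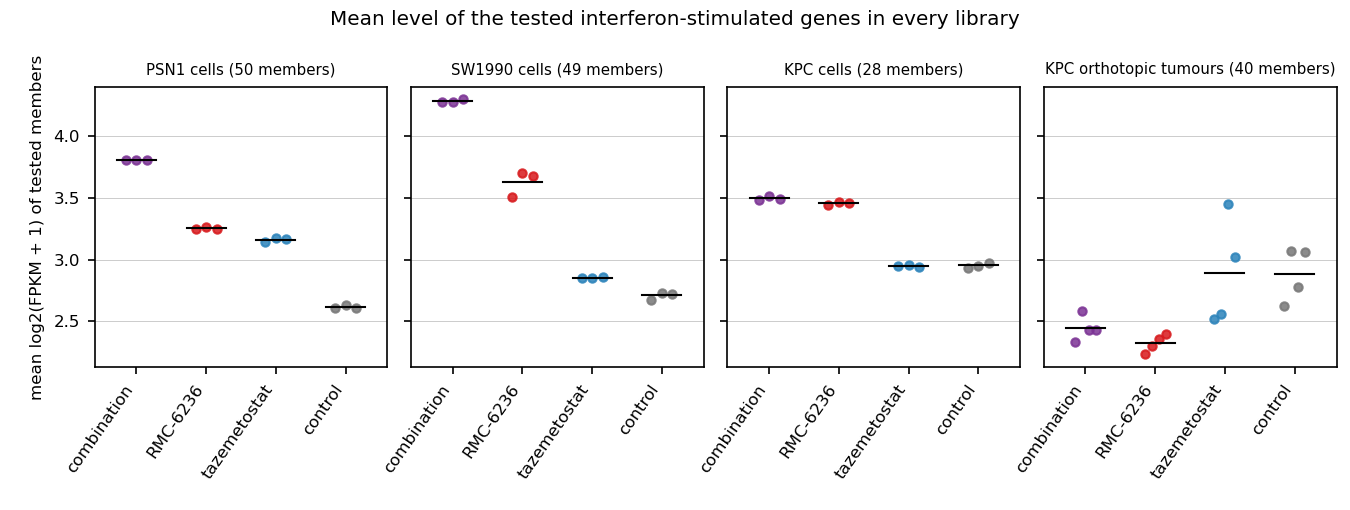
Average of the tested members' log2(FPKM + 1) per library, by table and arm, with a point per library. Means cover different members in each table and are comparable within a table. They include members that passed the filter only through treated arms. The arms separate in PSN1 (combination at 3.80 to 3.81, control at 2.61 to 2.63), and in the tumours the tazemetostat arm spreads over 2.52 to 3.45.

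Against RMC-6236 alone, the combination was higher for 42 of 50 members in PSN1 and lower for 0, where 24.1% of all genes were higher and 30.1% lower. In SW1990 46 of 49 were higher and 0 lower, against 29.8% and 18.3%. In KPC cells 9 of 28 were higher and 7 lower, against 20.3% and 28.5%. Rescaled by median ratio, SW1990 had 45 higher and 0 lower members, against 22.2% and 31.5% of all genes. Higher genes then made up 41.3% rather than 62.0% of all calls. The gain over RMC-6236 differed between the human lines for 8 members with more in PSN1 and 20 with more in SW1990, against 18.4% and 30.3% of all genes. Against control, the combination was higher for 47 of 50 members and lower for 1 in PSN1 (45.5% and 37.1% of all genes), higher for 49 of 49 in SW1990 (38.3% and 40.9%) and higher for 23 of 28 and lower for 2 in KPC cells (37.8% and 38.7%). Among members with a control mean of at least 1 FPKM, 35 of 41 in PSN1 were higher than with RMC-6236 and 0 lower. In SW1990 40 of 43 were higher and 0 lower, and in KPC cells 7 of 23 were higher and 6 lower. Against control, 38 of 41 of these members were higher and 1 lower in PSN1, and 43 of 43 were higher in SW1990. In KPC cells 18 of 23 were higher than control and 2 lower.

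RSAD2 had the largest gain over RMC-6236 in both human lines. In PSN1 it had 13.2, 12.2 and 12.6 FPKM in the combination and 2.44, 2.59 and 2.81 FPKM with RMC-6236 (1.92 ± 0.07, adjusted p = 1.54e-10). In SW1990 it had 6.59, 6.86 and 6.68 FPKM in the combination and 0.908, 1.37 and 1.14 FPKM with RMC-6236 (1.86 ± 0.07, adjusted p = 6.46e-10). The gains of CMPK2, 1.26 in PSN1 and 1.33 in SW1990, were the next largest in each. GBP2 reached 20.5, 22.5 and 21.9 FPKM in PSN1 combination cells and 10.3, 10.4 and 10.7 FPKM in SW1990 combination cells, changes of 3.0 and 3.27 against control. MX1 in SW1990 had 8.75, 8.62 and 8.80 FPKM in the combination and 0.536, 0.533 and 0.477 FPKM in control (2.68 ± 0.05). CMPK2 in both lines, and RSAD2, GBP2 and MX1 in SW1990, averaged under 1 FPKM in control. They passed the filter there through treated arms, so their ranks and calls there are no separate support for a rise. EIF2AK2 was the 1 member below control in PSN1, at 7.85, 7.96 and 7.95 FPKM in the combination (-0.20 ± 0.04, adjusted p = 0.000275).

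In KPC cells Ube2l6 and Gbp2 gained most over RMC-6236. Ube2l6 had 10.8, 12.5 and 12.9 FPKM in the combination and 7.5, 7.22 and 6.30 FPKM with RMC-6236 (0.71 ± 0.08), and Gbp2 had 21.6, 21.9 and 20.1 FPKM in the combination (0.70 ± 0.06, adjusted p = 1.32e-06). Isg15 fell to 2.01, 2.01 and 1.47 FPKM in the combination, against 3.78, 2.99 and 3.77 FPKM with RMC-6236 (-0.67 ± 0.14, adjusted p = 0.00156). Ifit2 fell by 0.36 ± 0.11 (adjusted p = 0.0156), a call lost without RMC-6236 replicate 3 (adjusted p = 0.0718) or without combination replicate 1 or 2 (0.0555 and 0.0607). Ifitm3 and Eif2ak2 were the 2 members below control in the combination, by 0.23 ± 0.03 and 0.19 ± 0.06. Ifit1, which was not tested there, was at 1.12, 1.01 and 0.586 FPKM in the combination, 0.204 to 0.342 FPKM with RMC-6236, 0.0468 to 0.0949 FPKM with tazemetostat and 0.0194 to 0.0712 FPKM in control.

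The interaction asks whether the gain from tazemetostat on top of RMC-6236 differed from its gain without RMC-6236, on the log2(FPKM + 1) scale. In SW1990 it was positive and passed for 39 of 49 members and negative for 0, against 9.03% and 6.19% of all genes, with a median of 0.54. Of the 43 members with a control mean of at least 1 FPKM, it passed as positive for 33 and negative for 0, with a median of 0.52. The 6 members under 1 FPKM in control all passed as positive. RSAD2, MX1 and GBP2 are among these 6, entered the test through treated arms, and have changes near control that the scale understates. RSAD2 had an interaction of 1.36 ± 0.11 (adjusted p = 2.84e-06), MX1 of 0.88 and ISG15 of 0.60. For GBP2, at 0.176 to 0.203 FPKM in control, it was 0.77, and 0.11 with a pseudocount of 0.1 (adjusted p = 0.682). In PSN1, 5 of 50 members had a positive and 5 a negative interaction, against 9.8% and 13.8% of all genes, with a median of 0.01, and that of RSAD2 did not pass (0.19, adjusted p = 0.184). Rescaling changed these counts to 8 positive and 3 negative, against 15% and 10.4% of all genes, with 59.1% rather than 41.5% of all calls positive. In KPC cells 7 of 28 were positive and 3 negative, against 12.1% and 13.7%.

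In the orthotopic KPC tumours more members fell than rose. RMC-6236 tumours had 20 of 40 tested members lower and 3 higher than vehicle tumours, where 19.2% of all 13545 genes were lower and 20.3% higher, and the median change was -0.44 for members and 0.01 for all genes. The 3 that were not tested were Ddx60, Ifi44l and Sp110. By role, 6 of 7 tested RNA-directed effectors, 3 of 4 large GTPases, 3 of 4 transcription factors and 2 of 5 genes of the ISG15 system and ubiquitin ligases fell, and 0 of 3 PARP proteins passed. Of the 39 members with a vehicle mean of at least 1 FPKM, 20 were lower and 3 higher. A tumour is a mixture, so fewer cells of a type and less RNA per cell cannot be told apart in these values.

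Ifit3 had 0.472, 1.14, 0.811 and 1.78 FPKM in RMC-6236 tumours, against 6.99, 18.1, 8.51 and 14.7 FPKM in vehicle tumours (-2.62 ± 0.41, adjusted p = 0.000245). Ifit1 had 0.205, 0.549, 0.479 and 0.624 FPKM with RMC-6236, against 3.37, 8.48, 4.19 and 7.47 FPKM in vehicle tumours (-2.17 ± 0.29, adjusted p = 7.12e-05). Isg15 had 2.28, 4.49, 5.05 and 3.49 FPKM with RMC-6236, against 9.94, 17.3, 17.7 and 16.4 FPKM in vehicle tumours (-1.76 ± 0.38, adjusted p = 0.00232). All RMC-6236 tumours were below all vehicle tumours for these genes, which hold the paired or overlapping ISRE matches printed above. Irf7 had 1.69, 1.89, 1.27 and 1.87 FPKM with RMC-6236 and 5.10, 6.83, 6.87 and 10.4 FPKM in vehicle tumours (-1.60 ± 0.35, adjusted p = 0.00255). Mx1 had 0.598, 0.683, 0.873 and 1.12 FPKM with RMC-6236 and 3.11, 4.33, 3.64 and 4.94 FPKM in vehicle tumours (-1.46 ± 0.17, adjusted p = 2.03e-05). Usp18, which removes Isg15 from proteins and restrains the interferon receptor, fell by 1.52 ± 0.26, and Rsad2 fell by 1.25 ± 0.28. Plscr1 had 13.3, 12.7, 11.9 and 10.4 FPKM with RMC-6236 and 24.8, 27.9, 28.4 and 24.3 FPKM in vehicle tumours (-1.06 ± 0.11, adjusted p = 1.07e-05), and Lgals3bp fell by 0.84 ± 0.10.

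The 3 members that were higher were Irf1, Ifitm3 and Ifi27. Irf1 had 17.1, 17.5, 21.2 and 18.3 FPKM with RMC-6236 and 12.8, 17.2, 13.4 and 14.2 FPKM in vehicle tumours (0.35 ± 0.08, adjusted p = 0.00407), so the lowest RMC-6236 tumour was just under the highest vehicle tumour. Ifitm3, a membrane protein that blocks viral entry, had 219, 241, 258 and 240 FPKM with RMC-6236 and 166, 176, 142 and 195 FPKM in vehicle tumours (0.50 ± 0.16, adjusted p = 0.0227), a call lost without control replicate 3 (adjusted p = 0.0739) or RMC-6236 replicate 3 (0.0587), and with no filter on low values (0.0562). Ifi27 had 39.8, 37.4, 38.4 and 37.4 FPKM with RMC-6236 and 26.2, 37.9, 27.3 and 28.6 FPKM in vehicle tumours (0.35 ± 0.11, adjusted p = 0.0195), with vehicle replicate 2 inside the RMC-6236 range, a call lost without control replicate 1 (adjusted p = 0.0646) or control replicate 3 (0.0587), and with no filter (0.05). Gbp2, the leading riser in culture, had 5.58, 5.32, 5.26 and 5.82 FPKM with RMC-6236 and 3.97, 6.06, 3.76 and 6.38 FPKM in vehicle tumours, a change of 0.13 ± 0.28 that did not pass (adjusted p = 0.74).

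Cell type markers moved together with these changes. The summed FPKM of 5 epithelial markers was 1410 to 1947 in RMC-6236 tumours and 3063 to 3784 in vehicle tumours, and 4 of the 5 were lower. Summed fibroblast markers were 2958 to 3942 FPKM with RMC-6236 and 848 to 1164 FPKM in vehicle tumours, with 7 of 8 higher. Summed macrophage markers were 1139 to 1643 FPKM with RMC-6236 and 462 to 591 FPKM in vehicle tumours, with 7 of 8 higher. Summed markers of plasmacytoid dendritic cells, strong producers of type I interferon, were at most 0.611 FPKM in any tumour, and those of NK cells at most 0.691 FPKM. Of all genes tested in the tumours, 20.3% were higher and 19.2% lower with RMC-6236. In KPC cells the epithelial sum was 2838 to 2872 FPKM with RMC-6236 and 3349 to 3479 FPKM in control. There the fibroblast sum was 65.62 to 66.63 FPKM with RMC-6236 and 41.45 to 42.44 FPKM in control. The macrophage sum went the other way in KPC cells, at 9.443 to 10.69 and 14.9 to 15.45 FPKM. The part of these marker shifts in the members' changes was not tested.

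**Figure D4:**
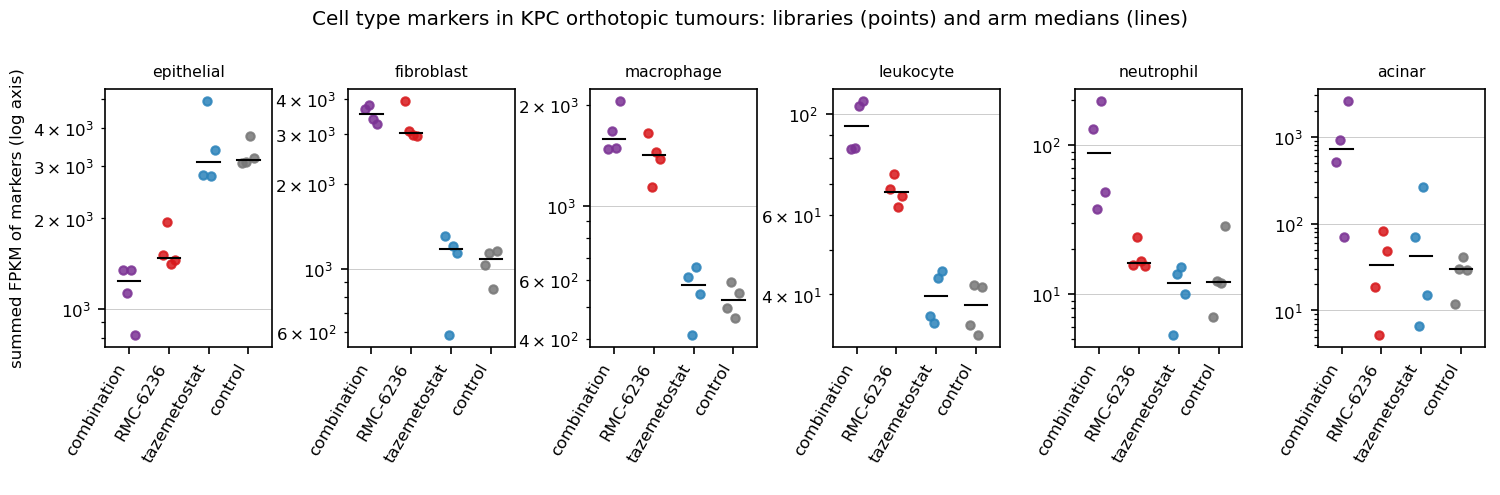
Summed FPKM (log axis) of marker genes of 6 cell types in each orthotopic tumour, by arm, with points for tumours and lines for medians. Fibroblast and macrophage sums are higher and epithelial sums lower in both RMC-6236-containing arms, and acinar sums span 70.6 to 2597 in the combination.

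Tazemetostat changed no member of the tumours past the threshold: limma called 0 of 40 members and 0% of all genes, and 1 member was higher and 1 lower at an unadjusted p below 0.05. The arm was uneven. Tazemetostat replicate 3 had the highest value of its arm for 36 of 40 members, including 25.7 FPKM of Ifit3, 42.6 FPKM of Isg15 and 19.0 FPKM of Irf7, where the other 3 tumours had 4.92 to 16.0, 9.11 to 19.1 and 3.46 to 7.70 FPKM. Among vehicle tumours, replicate 1 was lowest for 30 of 40.

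Combination tumours also had more members lower than higher. Against vehicle, 16 of 40 members were lower and 5 higher, where 25.7% of all genes were lower and 26.7% higher, and the median was -0.35. Ifit3 had 1.20, 2.12, 1.89 and 1.64 FPKM in the combination (-2.19 against vehicle), and Ifit1 had 0.370, 0.709, 0.572 and 0.714 FPKM. Epsti1 was higher in the combination, at 1.82, 2.88, 2.12 and 3.21 FPKM, than in RMC-6236 tumours, at 1.03, 1.12, 1.16 and 1.54 FPKM (0.65 ± 0.14, adjusted p = 0.00976), and by 0.67 ± 0.14 than in vehicle tumours. Ube2l6 was higher than in vehicle tumours by 0.54 ± 0.15 (adjusted p = 0.00799).

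Against RMC-6236 alone, Epsti1 was the 1 member that was higher and Ifitm1 the 1 that was lower, where 5.16% and 2.97% of all genes were, and 4 members were higher and 2 lower at an unadjusted p below 0.05. Ifitm1 had 66.1, 76.9, 59.9 and 69.8 FPKM in the combination, against 90.2, 101, 172 and 147 FPKM with RMC-6236 (-0.85 ± 0.17, adjusted p = 0.00509). Rescaled by median ratio, 1 member was higher and 2 lower, against 4.98% and 4.72% of all genes. Higher genes then made up 51.4% rather than 63.5% of all calls. Other cell type markers moved with this contrast. Summed endothelial markers were 18.5 to 28.2 FPKM in combination tumours and 9.4 to 11.5 FPKM in RMC-6236 tumours, neutrophil markers 37.2 to 198 and 15.5 to 24.1 FPKM, leukocyte markers 83.6 to 107 and 62.3 to 73.6 FPKM, and T cell markers 2.29 to 6.02 and 0.598 to 2.05 FPKM, in the same order of arms. None of these ranges overlapped, and their part in the members' changes was not tested. Combination replicate 2 had the highest value of its arm for 28 of 40 members. Combination replicates 2 and 4 had the highest summed acinar markers, 926 and 2597 FPKM, where the RMC-6236 tumours had 5.25 to 81.3 FPKM. The median of the 4 combination tumours was 720 FPKM and the lowest 70.6 FPKM, so the acinar excess was not confined to replicates 2 and 4. Without replicates 2 and 4 of the combination Epsti1 was 0.43 above RMC-6236 (adjusted p = 0.149), and Ube2l6 0.50 above vehicle (adjusted p = 0.05). No interaction passed for any member (0 of 40, against 1.49% positive and 0.369% negative of all genes), with 2 positive and 1 negative at an unadjusted p below 0.05.

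The contrast between culture and tumour was tested directly, by comparing the 2 changes of each gene in a joint limma model of KPC cells and KPC tumours. Of the 28 members tested in both tables, the change with RMC-6236 was more negative in tumours for 24 and more positive for 1, where 28.6% and 25.8% of 12068 genes were, and the median difference was -0.74. Of these 28, Gbp3, Herc6, Irf7, Oas2 and Trim21 averaged under 1 FPKM in control cells and passed the filter there through treated arms. Among the other 23 the change was more negative in tumours for 19 and more positive for 1, with a median difference of -0.69. The 1 more positive in tumours was Ifitm3 (0.55 ± 0.15, adjusted p = 0.00404), and the 3 that did not pass were Irf1, Ube2l6 and Ifit2. Dose and time are not given for either setting, so differences between them cannot be told apart from that of the setting.

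Of the 28 members tested in both, those that rose in KPC cells and fell in the tumours were 9. They were Stat2, Irf7 and Irf9 among the transcription factors, the RNA-editing enzyme Adar, the RNA sensor Dhx58, Oas2, Oas3, Gbp3 and Isg15. Of all genes tested in each table, 37.9% were higher in KPC cells and 19.2% lower in the tumours. The share of all genes with both calls was not computed. The differences given for these 9 use the same libraries as the opposite calls that picked them, so they are no separate support. Of these 9 members, 6 averaged at least 1 FPKM in control cells, and Irf7, Oas2 and Gbp3 did not. Irf7 changed by -1.60 in tumours and 1.11 in cells (difference -2.71 ± 0.34, adjusted p = 4.9e-07), and Isg15 by -1.76 and 0.74 (-2.51 ± 0.40, adjusted p = 1.25e-05), tumours first. Irf9 had 3.74, 3.68, 3.46 and 3.71 FPKM in RMC-6236 tumours and 4.96, 5.61, 5.75 and 6.27 FPKM in vehicle tumours, while in culture it had 4.52, 4.89 and 4.27 FPKM with RMC-6236 and 2.74, 2.87 and 2.51 FPKM in control. Its groups did not overlap in either setting, and the difference of the changes was -1.10 ± 0.12 (adjusted p = 4.5e-08). Adar had 5.74, 5.69, 6.02 and 7.02 FPKM in RMC-6236 tumours and 7.96, 8.74, 8.35 and 8.72 FPKM in vehicle tumours, against 6.67, 6.71 and 6.89 FPKM in RMC-6236 cells and 4.90, 4.57 and 5.33 FPKM in control cells (-0.80 ± 0.10). Here too the groups stood apart in both settings. Dhx58 had 0.650, 0.987, 1.10 and 1.15 FPKM in RMC-6236 tumours and 2.05, 3.88, 2.72 and 4.22 FPKM in vehicle tumours, against 2.84, 2.97 and 2.97 FPKM in RMC-6236 cells and 1.8, 2.17 and 1.95 FPKM in control cells (-1.47 ± 0.25). Oas3 had 0.132 to 0.316 FPKM in RMC-6236 tumours and 0.712 to 2.03 FPKM in vehicle tumours, against 4.06, 3.94 and 3.91 FPKM in RMC-6236 cells and 1.81, 2.30 and 2.44 FPKM in control cells (-1.64 ± 0.26). Both fell in every tumour below the vehicle range and rose in every culture sample above the control range.

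Some of these calls rested on single libraries or on the filter. Oas2 in KPC cells had 0.713, 0.789 and 0.527 FPKM with RMC-6236 and 0.347, 0.578 and 0.366 FPKM in control, which overlapped, and its call (0.23 ± 0.09, adjusted p = 0.0294) was lost without RMC-6236 replicate 1 or 2 (adjusted p = 0.0769 and 0.111) or control replicate 1 or 3 (0.103 and 0.0917), with no filter (0.0551) or with the compared arms alone (0.0583). Gbp3 in tumours, with 1.07, 1.12, 1.10 and 1.57 FPKM with RMC-6236 and 2.03, 3.62, 3.15 and 4.21 FPKM in vehicle tumours (-0.92 ± 0.29, adjusted p = 0.0199), was lost without control replicate 4 (adjusted p = 0.0571). Stat2 in tumours, with 2.98, 3.31, 3.42 and 3.72 FPKM with RMC-6236 and 4.0, 4.94, 4.57 and 5.29 FPKM in vehicle tumours (-0.38 ± 0.13, adjusted p = 0.0298), was lost without RMC-6236 replicate 1, 2 or 3 or control replicate 2, 3 or 4, with adjusted p of 0.0526 to 0.0816, and with no filter (0.0733). For all 3 the test of the difference between tumours and cells passed, for Oas2 at -1.07 ± 0.25, for Gbp3 at -1.87 ± 0.27 and for Stat2 at -0.92 ± 0.17 (adjusted p = 5.34e-05). All 3 were picked by opposite calls in the same libraries, so this does not make the lost calls firmer. The change of Oas2 was -0.85 in tumours and 0.23 in cells.

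**Figure D5:**
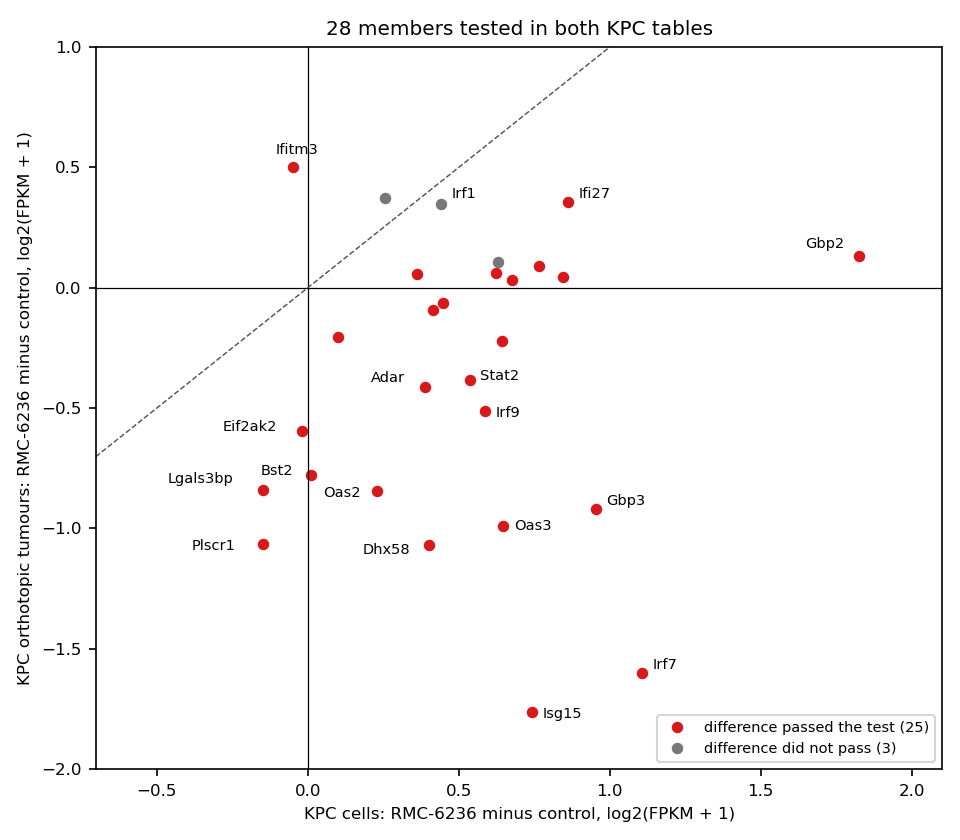
Change with RMC-6236 against control in KPC tumours (vertical) and in KPC cells (horizontal), both as differences in log2(FPKM + 1), for the 28 members tested in both. The 25 red points passed the test of the difference and the 3 grey points did not. Irf7 and Isg15 lie lowest, at -1.60 and -1.76 in tumours, and Gbp2 lies farthest right at 1.83.

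Irf1 and Ifi27 rose in both KPC settings, and Plscr1 and Lgals3bp fell in both. For Irf1 the difference was -0.09 ± 0.10 (adjusted p = 0.432), and IRF1 and IFI27 were the members called higher with RMC-6236 in all 4 tables. With tazemetostat the change differed for 1 member, Irf1 (0.39 more positive in tumours, adjusted p = 0.00785), where 10.2% of all genes were more positive and 6.9% more negative in tumours. With the combination against control it was more negative in tumours for 22 and more positive for 1, where 32.2% and 30.7% of all genes were, and Gbp2 had the difference of -2.15 (adjusted p = 3.07e-07).

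Genes of the pathway that are not in the set were called in both directions. Of a list of ligands, receptors, kinases, sensors, feedback inhibitors and chemokines, RMC-6236 raised 21 and lowered 7 of 33 tested in PSN1 (45.8% and 34.6% of all genes) and 12 and 11 of 32 in SW1990 (30.7% and 41.7%). It raised 16 and lowered 9 of 29 in KPC cells (37.9% and 35.8%) and 17 and 5 of 34 in the tumours (20.3% and 19.2%). JAK1 was higher with RMC-6236 in all 4 tables, by 0.97 in PSN1, 0.35 in SW1990, 0.85 in KPC cells and 0.21 in the tumours. IFNAR1 was higher in the 3 cultures, by 0.36, 0.38 and 0.25 in that order of lines.

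Transcripts of most interferons on the list were at or near 0, and IFNE and IFNL1 were the ones tested. IFNE, a type I interferon of epithelia, had 2.12, 2.54 and 3.29 FPKM with RMC-6236 and 3.48, 3.43 and 3.54 FPKM in control in SW1990 (-0.31 ± 0.10, adjusted p = 0.0107), and it was higher in the combination than with RMC-6236 by 0.39 (adjusted p = 0.0044). In PSN1 it had 2.31, 2.87 and 2.59 FPKM with RMC-6236 and 0.945, 1.07 and 0.825 FPKM in control (0.88 ± 0.12, adjusted p = 1.62e-05), and it was lower in the combination than with RMC-6236 by 0.49. RMC-6236 and control values did not overlap in either line, and the directions were opposite. IFNB1 averaged 0.955 FPKM in the combination, 0.604 with RMC-6236, 0.609 with tazemetostat and 0.383 in control in PSN1, which was below the filter, and it was listed at or near 0 in SW1990 and KPC cells. In the tumours Ifnb1 was at 0 in all RMC-6236 tumours and at most 0.0896 FPKM in vehicle tumours, with 0.441 FPKM in tazemetostat replicate 3. IFNL1, a type III interferon, had 4.76, 3.61 and 3.45 FPKM with tazemetostat and 1.02, 2.21 and 1.38 FPKM in control in PSN1 (0.98, called), whereas its change of 0.28 with RMC-6236 was not called. IFNG was at or near 0 in every table.

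CXCL10, an interferon-induced chemokine that attracts T cells, rose with each drug in PSN1 and fell with RMC-6236 in the tumours. In PSN1 it had 19.4, 20.5 and 19.5 FPKM in the combination, 3.06, 3.05 and 2.87 FPKM with RMC-6236, 8.36, 9.55 and 10.5 FPKM with tazemetostat and 1.53, 1.59 and 1.83 FPKM in control. All 3 drug arms were higher than control and did not overlap with it, by 2.97, 0.59 and 1.98. In the tumours Cxcl10 had 0.270, 0.574, 0.396 and 0.545 FPKM with RMC-6236 and 2.27, 7.89, 2.95 and 3.75 FPKM in vehicle tumours (-1.75). The DNA sensor CGAS fell with RMC-6236 by 0.97 in PSN1 and 1.47 in SW1990, and its adaptor STING1 rose by 0.87 in PSN1 and fell by 0.61 in SW1990 and 0.98 in KPC cells.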

How the data were processed

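RNA-seq of 52 libraries was used from a series of 67 samples; the other 15, from a subcutaneous resistance model, were not analysed here. The values are FPKM deposited by the authors; per the submitters' processing notes FastQC 0.11.2, STAR 2.5.3a and StringTie 1.3.1c were used and hg38 is listed for all samples, so the mouse build is not stated. Per the labels' protocols libraries were stranded; whether counting used strand is not given in the sources used here.

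Members and lists were chosen with earlier results of these data known. Of the series' tables, 0 columns of per-sample values were left unused. Genes at 1 FPKM or more in at least 3 libraries of a culture, or 4 of the tumours, were tested with limma 3.58.1 (R 4.3.3, statmod 1.5.0 and, at version 1.17.8, data.table) on log2(FPKM + 1), with a mean per arm, all 4 arms of a table in the fit, trended and robust variance moderation, and Benjamini-Hochberg adjustment over all genes tested at 0.05. Changes in 2 tables were compared in a joint fit that weighted each table; that of PSN1 and SW1990 was added after seeing the data. The code was tested on simulated data. Named were the members with the largest called rises and falls of each contrast (up to 4 each way for RMC-6236 and 2 each way otherwise), those called in the same direction in every table or oppositely in KPC cells and tumours, a fixed group of 9, and pathway genes by role. Other genes named for their values, such as IFITM1 in PSN1, were chosen after their values were seen.

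Alternatives were a pseudocount of 0.1, no filter, median-ratio scaling, the replicate number as a block, plain variance moderation, only the compared arms, equal weights in the joint fits, each library left out and, added after seeing the data, the tumours without both combination tumours highest in acinar markers. Promoters and gene starts are RefSeq's for GRCm38.p6, and motifs were searched on both strands. Counts over tables and figures were made with Python 3.11.15, pandas 2.3.3 and matplotlib 3.10.9. The read depth per sample is unknown from FPKM, so no counting interval is given. Counts over the pathway list include 1 gene whose own values are not reported here.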

Additional observations from a re-analysis of the deposited data

Results flagged for a closer look

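In 80 sets of tumours, each a named gene or the members' mean level in 1 arm, 2 held a tumour that stood far from the other 3, where chance gives about 1 in 20. Gbp3 was 1.57 FPKM in RMC-6236 tumour replicate 4, against 1.07 to 1.12 FPKM in the other RMC-6236 tumours. Isg15 was 9.94 FPKM in vehicle tumour replicate 1, against 16.4 to 17.7 FPKM in the other vehicle tumours.

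The tests of a difference between settings passed for many members. Between KPC tumours and KPC cells the change differed for 25 of 28 members with RMC-6236, for 1 with tazemetostat and for 23 with the combination against control. Between PSN1 and SW1990 it differed for 34 of 49 members with RMC-6236, for 32 with tazemetostat and for 28 with the combination against RMC-6236, of which 8 were more positive in PSN1 and 20 in SW1990 (18.4% and 30.3% of all genes).

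The share of all genes that rose in KPC cells and fell in tumours with RMC-6236 was not computed. The 9 members that did so each passed the test of the difference in change, tumours minus cells. Their opposite calls came from the same libraries and made this outcome nearly certain, so it is no separate support. The difference carries only its size. This difference was -2.71 for Irf7, -2.51 for Isg15, -1.87 for Gbp3, -1.64 for Oas3, -1.47 for Dhx58, -1.10 for Irf9, -1.07 for Oas2, -0.92 for Stat2 and -0.80 for Adar, in units of log2(FPKM + 1).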

How the results depend on the processing

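Of the 237 called single-gene changes that were recomputed, no change reversed its direction under any alternative. Counts and medians were not judged by direction. With no filter, all 43 matched mouse members were tested. RMC-6236 then raised 27 and lowered 2 members in KPC cells. In the tumours it lowered 19 and raised 3, and Ifitm3, Ifi27 and Stat2 lost their calls. The change with RMC-6236 was more negative in tumours than in cells for 33 members and more positive for 2. Also with no filter, the change was more positive in tumours for 3 members with the combination and more negative for 1 with tazemetostat, the interaction was negative for 1 member in KPC cells and for 2 in PSN1, and tazemetostat's change was more negative in PSN1 than in SW1990 for 1. Under median-ratio scaling, PSN1 had 4 lower members with RMC-6236 (43.2% of all genes), 4 lower with tazemetostat (33%) and 2 lower with the combination against control (45.3%). It also had 8 positive and 3 negative interactions (15% and 10.4%). Under the same scaling SW1990 had 7 lower members with tazemetostat (26% of all genes), and the tumours had 2 lower in the combination against RMC-6236 (4.72%). RMC-6236's change was then more positive in PSN1 than in SW1990 for 3. That scaling moved the median of all genes in PSN1 by -0.114 for RMC-6236, from 0.077 to -0.037. For the combination against control it moved by -0.125, from 0.069 to -0.056, so both medians changed sign. ADAR in PSN1 with RMC-6236 then had a change of 0.01 (limma adjusted p = 0.722). With plain variance moderation, 3 members rose with tazemetostat in KPC cells, 3 interactions were negative in PSN1, and tazemetostat's change was more negative in PSN1 than in SW1990 for 1. A pseudocount of 0.1 gave 8 negative interactions in PSN1. Fitting the compared arms alone gave 1 lower member with RMC-6236 in PSN1 and 4 higher in the combination against RMC-6236 in the tumours. That last count was 0 without both combination tumours highest in acinar markers. Apart from these settings' own construction, the causes were not tested. Shares of all genes were computed only for median-ratio scaling within a table. The other counts here have no background to be judged by.

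Leaving out each library in turn gave these ranges, for which shares of all genes were not computed. In KPC cells 4 to 7 members were lower in the combination against RMC-6236, 1 to 5 interactions were negative and 2 to 6 members rose with tazemetostat. In the tumours 1 to 4 rose and 18 to 22 fell with RMC-6236, 1 to 3 were higher and 1 to 2 lower in the combination against RMC-6236, and 0 to 1 interactions passed each way. The change differed between tumours and cells with tazemetostat for 1 to 3 members. In PSN1 1 to 2 members were lower with RMC-6236, 0 to 1 with tazemetostat and 1 to 2 with the combination against control, and 3 to 5 interactions were negative. Tazemetostat's change was more negative in PSN1 than in SW1990 for 0 to 4. Of 237 single-gene changes recomputed, 18 lost a call without 1 library. Depth is unknown, and members near 1 FPKM, such as most of those below the filter in KPC cells, are the least certain.

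The replicate numbers showed no general pairing of the samples, but pairing is not excluded. Same-numbered libraries had deviations correlated over 0.1 in 2 of the 18 PSN1 pairs, 3 of the 18 SW1990 pairs, 1 of the 18 KPC culture pairs and 4 of the 24 tumour pairs. Their mean correlation was 0.023, -0.001, 0.017 and -0.062 in that order, and -0.012, 0.001, -0.008 and 0.021 for different numbers. Same-numbered SW1990 control and RMC-6236 libraries had correlations of 0.391, 0.201 and 0.05. With the replicate block, RMC-6236 raised 45 and lowered 2 members in PSN1, raised 48 in SW1990, raised 23 and lowered 2 in KPC cells, and raised 3 and lowered 20 in the tumours. In that fit its change was more negative in tumours than in cells for 23 members. Shares of all genes were not computed with the replicate block.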

Other observations

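Mouse interferon-induced genes outside the set, a list of 44 that includes families without a human counterpart of the same name, were measured in both KPC tables. With RMC-6236 against control, 23 of 30 tested were higher and 3 lower in KPC cells (median 0.61), against 37.9% and 35.8% of all genes. In the tumours 2 of 35 were higher and 12 lower (median -0.30), against 20.3% and 19.2%. Ifi204, a nucleic acid sensor of the p200 family, had 16.0, 15.6 and 15.2 FPKM with RMC-6236 and 5.57, 6.35 and 5.09 FPKM in control in KPC cells (1.32 ± 0.06, limma adjusted p = 6.08e-10). In the tumours it had 11.6, 10.1, 7.47 and 9.63 FPKM with RMC-6236 and 11.5, 15.7, 12.6 and 17.5 FPKM in vehicle tumours (-0.52 ± 0.24, limma adjusted p = 0.0965). Rtp4, an interferon-induced inhibitor of flavivirus replication, rose by 1.04 ± 0.08 in KPC cells and fell by 0.94 ± 0.30 in the tumours (limma adjusted p = 0.0226). Ifit3b, a close copy of Ifit3 that can share its reads, fell by 1.89 ± 0.34 in the tumours.

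Oasl1 fell in both settings, and Ifi30 was higher in tumours and lower in cells. Oasl1, which represses translation of Irf7 in mice, changed with RMC-6236 in the same direction in each, and fell by 1.23 ± 0.18 in tumours and 0.28 ± 0.08 in cells. Ifi30, a lysosomal thiol reductase of antigen processing, had 75.2, 75.9, 93.9 and 76.0 FPKM in RMC-6236 tumours and 44.6, 52.1, 42.5 and 48.6 FPKM in vehicle tumours (0.76 ± 0.09), and fell by 0.51 ± 0.04 in KPC cells. Summed macrophage markers were higher in RMC-6236 tumours than in vehicle tumours, as given above, and their part in the rise of Ifi30 was not tested. These genes were named after their values were seen.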
